A study of Zea mays with 8 samples.

Results

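The genes described here are the 150 most even transcripts among those that were abundant in every library of a maize drought series. Of 23586 genes listed in both tissue tables, 950 had at least 50 FPKM (fragments per kilobase of gene model, scaled to the mapped fragments of the library) in all 8 libraries. For each of the 950 the span, the highest minus the lowest log2(FPKM + 1), was taken over the 4 libraries of each tissue, the larger of both spans was its score, and the 150 genes with the smallest scores were kept. The choice used the drought and well-watered values of both tissues, so the drought values of these 150 genes are a description and carry no test. The other 800 abundant genes are the set with which they are compared.

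The libraries came from ovaries of droughted plants, ovaries of well-watered plants, basal leaf meristem of droughted plants and basal leaf meristem of well-watered plants, with 2 libraries in each of the 4 groups. Every plant was of the inbred line B73, the line on which the maize reference genome is based, grown in a greenhouse to silk emergence, with tissue taken at 1 day after pollination. For drought, irrigation was withheld for 2 to 3 days before hand pollination and tissue was taken 24 hours after it. The leaf samples were the basal growth zone of the 3 youngest leaves, and polyadenylated RNA was sequenced. The sample labels count 2 biological replicates, the series description counts 1, and neither says whether the libraries of a group came from separate plants, so p-values reflect variation among libraries, which may be technical.

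Genes of this kind are often called housekeeping genes, because they encode parts of the machinery that most cells keep running: ribosomes and their translation factors, chaperones, splicing factors, ubiquitin enzymes and membrane channels. Such machinery is usually encoded in plants by families of related genes, and the members of a family can differ in where and when they are transcribed. Transcripts that stay even are used as internal controls to which other transcripts are scaled, and actin, tubulin, glyceraldehyde-3-phosphate dehydrogenase and elongation factor genes have long served this purpose.

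The gene models could be matched to the RefSeq annotation of B73 for 126 of the 150 members, and 24 had no match. A name other than a locus or clone number was found for 23 members, and the other members are given by their model identifiers. GRMZM2G443655 and GRMZM2G073628 are both models of 1 RefSeq gene, PDIL5-1, so these 2 members are not independent. The 150 members took between 2.27% and 2.98% of the summed FPKM of a library, when AC198871.3_FG002 and AC195320.3_FG003, which inflate the sum of the second well-watered ovary library, are left out. Read counts were not given, so sequencing depth is unknown and values carry no counting error. Of 7 floral genes matched, ZAG1, a C-class floral organ gene, has values in both tables, with 49.9 and 63.0 FPKM in droughted and 96.3 and 83.1 FPKM in well-watered ovaries, and 0.394 and 0.238 FPKM in droughted and 0.447 and 0.293 FPKM in well-watered leaf. The 7 together summed to 323 to 415 FPKM in droughted and 444 to 527 FPKM in well-watered ovaries. The other 6 have no listed leaf values, which is not the same as a measured 0. The 20 genes with photosynthesis symbols and values in both tables summed to 246 to 249 FPKM in droughted and 866 to 1484 FPKM in well-watered ovaries, against 23040 to 26607 FPKM in droughted and 19211 to 23493 FPKM in well-watered leaf. Of these 20, 18 were higher in every leaf library than in every ovary library, and lhcb3 is listed at 0 in both droughted ovary libraries. The meristem marker kn1, a KNOX homeobox gene, had 24.8 and 16.8 FPKM in droughted and 5.26 and 2.42 FPKM in well-watered ovaries, and has no listed leaf values.

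The members held their level to within a narrow band in both tissues. Their score ran from 0.12 to 0.46 log2 units with a median of 0.36, so the highest library of a tissue exceeded the lowest by 1.09-fold to 1.38-fold, with a median of 1.28-fold. The other 800 abundant genes had scores of 0.46 to 5.05 with a median of 1.11, or 2.16-fold. The gap between the sets lay mostly in the ovary: the median ovary span was 0.30 in members and 1.05 in the other 800, whereas the median leaf span was 0.26 in members and 0.39 in the other 800. The ovary span was the larger for 91 of 150 members and for 696 of the other 800. Libraries of the same condition also lay closer together in members, with a median replicate gap of 0.11 log2 units in ovary and 0.12 in leaf, against 0.20 and 0.18 in the other 800, which is a measure that the rule itself restricts.

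**Figure D1:**
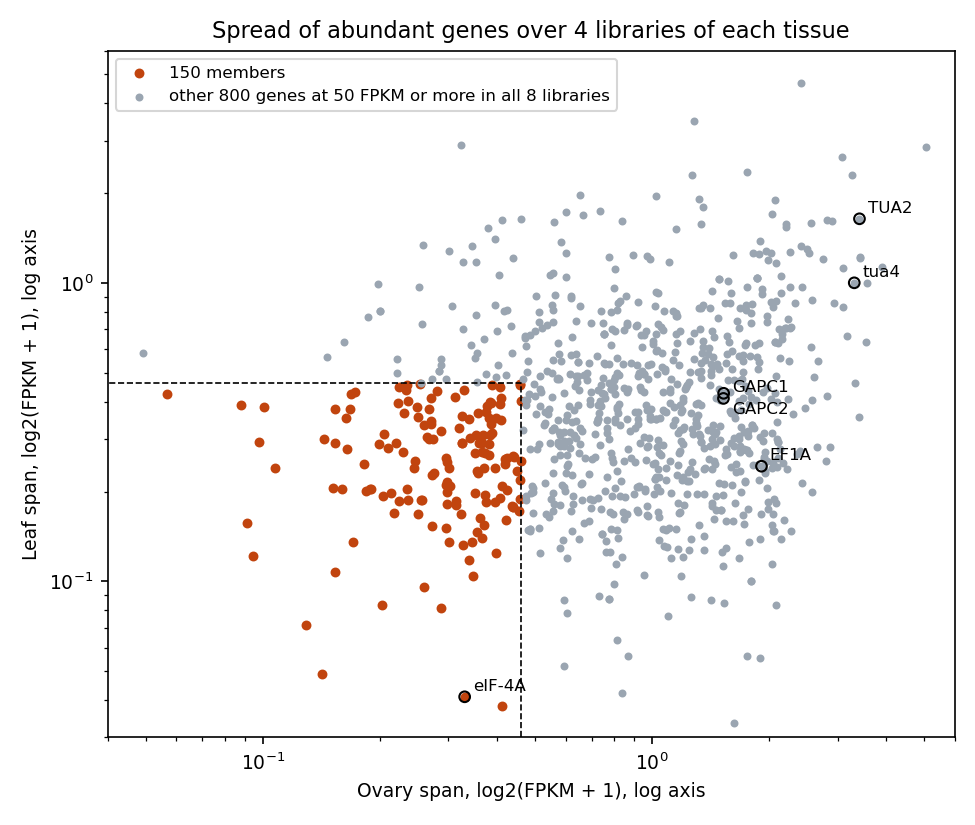
Each point is 1 of the 950 genes with at least 50 FPKM in all 8 libraries, placed by its span over the 4 ovary libraries (horizontal) and the 4 leaf libraries (vertical), both in log2(FPKM + 1) units on log axes. The 150 members fill the corner inside the dashed lines, where the larger span is 0.46 or less, and of the 6 ringed internal-control genes 1, eIF-4A, lies there.

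The edge of the set is a cut in a continuous range. Just inside it stood GRMZM2G082998, GRMZM2G073535 and GRMZM2G121820, with scores of 0.459, 0.460 and 0.461. Just outside it stood GRMZM2G150367, the ubiquitin-conjugating gene UCE (GRMZM2G007276) and GRMZM2G137375, with scores of 0.462, 0.467 and 0.467. The excluded UCE had 321 and 272 FPKM in droughted and 349 and 321 FPKM in well-watered ovaries, and 288 and 224 FPKM in droughted and 284 and 310.2 FPKM in well-watered leaf.

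Members were less abundant than the other abundant genes, with a median of the mean FPKM over 8 libraries of 90.6 against 143 in the other 800 and 14.9 over the 20252 genes tested in both tissues. Within a library they stood between percentile 88.5 and percentile 99.9. The absolute drought difference had a median of 0.15 log2 units in ovary and 0.12 in leaf for members, 0.86 and 0.18 for the other 800, and 0.63 and 0.25 for all tested genes.

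No member was called for drought in either tissue, as the rule makes likely. In a limma fit over all genes with Benjamini-Hochberg adjusted p under 0.05, 0 of 150 members were called in the ovary, where 53.1% of 23770 tested genes were called, and 0 of 150 in the leaf, where 3.26% of 22418 were. At an unadjusted p under 0.05 these counts of members were 3 in the ovary and 4 in the leaf. Over all tested genes that threshold was reached by 14161 of 23770 in the ovary and 5020 of 22418 in the leaf. Of the other 800 abundant genes, 210 rose and 363 fell in droughted ovaries, and 12 rose and 0 fell in droughted leaf, where 2.35% of all tested genes rose and 0.906% fell. With quantile normalization 3 members were called in the ovary, namely GRMZM2G018901, dhy-l (GRMZM2G031308) and GRMZM2G090274, with log2 differences of 0.42, 0.50 and 0.48.

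Small directional differences remained within the narrow band. Both droughted ovary libraries lay above both well-watered ones for 42 members and below them for 42, while 66 overlapped, and over all tested genes these shares were 37.8% above and 42.2% below. In the leaf 21 members (14%) lay above, 57 (38%) below and 72 overlapped, against 23.5% above and 35.7% below over all tested genes. In the other 800 these leaf shares were 27.5% above and 24.5% below, and the ovary shares 35.25% above and 54.4% below. The median drought difference of all tested genes was -0.05 log2 units in ovary and -0.06 in leaf. The leaf members' median of -0.05 is close to that of all genes, whereas the leaf median of the other 800 was 0.03. Separation in opposite directions in the 2 tissues was seen for 23 members (15.3%), 204 of the other 800 (25.5%) and 26.4% of all genes tested in both. Separation in the same direction was seen for 18 members, 12% of them, against 19.9% of the other 800.

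The most even of the 950 abundant genes was ubc7 (GRMZM2G012052), a ubiquitin-conjugating enzyme gene whose product hands ubiquitin on to proteins marked for the proteasome. It had 138 and 129 FPKM in droughted ovaries, against 135 and 138 FPKM in well-watered ovaries, and 153.3 and 148.003 FPKM in droughted leaf, against 159.8 and 147 FPKM in well-watered leaf. The drought libraries overlapped the well-watered ones in both tissues, and the score of 0.12 corresponds to 1.09-fold. The lists of relatives were drawn up from gene names after the names of the members were known. Of the 4 genes named as ubiquitin-conjugating enzymes and tested, uce2 (GRMZM2G177276) rose in droughted ovaries, with 40.7 and 43.4 FPKM, against 28.7 and 25.9 FPKM in well-watered ovaries, a limma log2 change of 0.61 ± 0.149 (SE) with a Benjamini-Hochberg adjusted p of 0.0177. That call was lost without the second well-watered library or without either drought library (adjusted p up to 0.115). Changes and standard errors given for relatives below come from the same fit, with n = 2 libraries in each group. Their counts stand beside a background in which 23.6% of all tested genes rose and 29.5% fell in droughted ovaries, and 2.35% rose and 0.906% fell in droughted leaf. UCE was not called in either tissue.

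GRMZM2G082222 was the second most even member, with 72.3 and 78.7 FPKM in droughted and 78.2 and 79.1 FPKM in well-watered ovaries, and 53.9 and 53.7 FPKM in droughted and 56.1 and 56.5 FPKM in well-watered leaf. AC215690.3_FG002 followed with 155 and 167 FPKM in droughted and 154 and 170.2 FPKM in well-watered ovaries, and 58.3 and 56.3 FPKM in droughted and 57.9 and 57.9 FPKM in well-watered leaf. As deposited, AC215690.3_FG002 had a 2.77-fold higher level in ovary than in leaf. GRMZM2G174757, the fifth most even, had 158 and 149.5 FPKM in droughted and 159 and 150.4 FPKM in well-watered ovaries, and 100.4 and 95.2 FPKM in droughted and 105 and 106 FPKM in well-watered leaf.

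Autophagy, the bulk recycling of cell contents, uses ATG8 proteins, ubiquitin-like proteins that are anchored to the growing autophagosome membrane. Atg8a (GRMZM2G336871) was a member at rank 69, with 55.0 and 64.7 FPKM in droughted and 59.1 and 50.5 FPKM in well-watered ovaries, and 61.9 and 64.1 FPKM in droughted and 74.8 and 66.3 FPKM in well-watered leaf. The drought libraries overlapped the well-watered ones in ovary and lay below them in leaf, where the log2 difference was -0.16. Among its relatives Atg8d (GRMZM2G134613) rose in droughted ovaries to 96.6 and 131 FPKM, against 44.1 and 40.5 FPKM in well-watered ovaries, a log2 change of 1.39 ± 0.193 with adjusted p of 0.00223, or 0.0573 without the second well-watered library. Atg8e (GRMZM2G014975) rose by 1.12 ± 0.219 with adjusted p of 0.0079, which reached 0.108 with a library left out. It was not called without either well-watered library or without the second drought library. Atg8b (GRMZM2G419694) had 106 and 134 FPKM in droughted ovaries and is listed at 0 in both well-watered ones, so no fold is given. In leaf 0 of the 5 ATG8 genes were called. Whether a member differs from its relatives in its drought response was not tested, here or in the families that follow.

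Protein synthesis gave 3 members. The P2 protein gene rpp2b (GRMZM2G114954) encodes an acidic protein of the ribosomal stalk, to which elongation factors bind. It had 163 and 158 FPKM in droughted and 195 and 175 FPKM in well-watered ovaries, and 421 and 455 FPKM in droughted and 471 and 415 FPKM in well-watered leaf. The droughted ovaries lay below the well-watered ones, with a log2 difference of -0.20, and the leaf libraries overlapped. Each of the other 6 acidic ribosomal P genes tested fell in droughted ovaries, with log2 changes between -1.45 (arpp3, GRMZM2G077208) and -1.91 (arpp2a, GRMZM2G119809). The call of arpp3 was lost without the second well-watered library (adjusted p 0.0548). The values of arpp2a are identical in every library to those of arpp2a-2 (GRMZM2G102891), so these 2 count as 1 measurement. arpp1a (GRMZM2G032315) had 55.0 and 49.6 FPKM in droughted and 198 and 193 FPKM in well-watered ovaries, and in leaf it is listed at 0 in both droughted libraries, against 133 and 116 FPKM in the well-watered ones.

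The translation factor gene tif5A (GRMZM2G144030), for the factor eIF5A that promotes peptide bond formation, was the fifth most abundant member. Its level was 382 and 363 FPKM in droughted and 376 and 448 FPKM in well-watered ovaries, and 663 and 688 FPKM in droughted and 657 and 721 FPKM in well-watered leaf, with overlap in both tissues. Its namesake eif5a (GRMZM2G113696) is listed at 0 in both droughted ovary libraries, against 446 and 487 FPKM in well-watered ovaries, while in leaf it had 538 and 543 FPKM under drought and 578 and 556 FPKM with water. A listed 0 for a gene at that level can be a failed estimate rather than an absence. tif4A2 (GRMZM2G116034, also named eIF-4A), the RNA helicase that unwinds messenger RNA leaders, had 169.8 and 162 FPKM in droughted and 196 and 203 FPKM in well-watered ovaries, and 168 and 165 FPKM in droughted and 169.8 and 170.2 FPKM in well-watered leaf. Its leaf span of 0.04 log2 units was the second narrowest of the members. The droughted libraries lay below the well-watered ones in both tissues, with log2 differences of -0.27 in ovary and -0.03 in leaf.

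Across the wider translation list of ribosomal proteins and factors, 33 of 44 tested genes fell in droughted ovaries and 2 rose, with a median log2 change of -1.45, against 29.5% falling and 23.6% rising over all tested genes. With a library left out the falling count was 26 to 30. The rising pair were tif1 (GRMZM5G835323), with 1679 and 2205 FPKM in droughted and 469 and 546 FPKM in well-watered ovaries, and RPL10 (GRMZM2G087233), listed at 0 in both well-watered libraries. Without either well-watered library only 1 was called. In leaf 1 of 46 was called, the arpp1a listed at 0 under drought, and that call was lost without either drought library. In bulk tissue a lower level cannot be told apart from fewer cells of a type or less RNA per cell. The photosynthesis marker sum and the kn1 level given above also differ between droughted and well-watered ovaries, and their part in these family changes was not tested.

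Protein folding gave 3 members. cdj2 (GRMZM2G364069), a DnaJ co-chaperone gene whose product works with Hsp70, was the most abundant of all members. It had 1133 and 1133 FPKM in droughted and 984 and 1042 FPKM in well-watered ovaries, and 888 and 776 FPKM in droughted and 812 and 836 FPKM in well-watered leaf. The droughted ovaries lay above the well-watered ones by 0.16 on the log2 scale, and the leaf libraries overlapped. The models of PDIL5-1, a protein disulfide isomerase-like gene of the secretory pathway, gave 117 and 125 FPKM (GRMZM2G443655) and 86.6 and 93.9 FPKM (GRMZM2G073628) in droughted ovaries, against 121 and 112 FPKM and 80.8 and 86.2 FPKM in well-watered ovaries. In ovary the conditions overlapped for GRMZM2G443655, and drought lay above well watered for GRMZM2G073628. Both models overlapped between conditions in leaf, with 102 and 89.1 FPKM and 62.9 and 67.3 FPKM under drought, against 103 and 91.5 FPKM and 72.4 and 65.0 FPKM with water.

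Of the 15 PDI-like genes tested, these 2 models included, 8 fell in droughted ovaries, 0 rose, and 0 were called in leaf. PDIL1-2 (GRMZM2G163421) fell to 6.10 and 6.34 FPKM in droughted ovaries, against 69.4 and 80.8 FPKM in well-watered ones, a log2 change of -3.39 ± 0.160 with adjusted p of 7.67e-05. With a library left out 3 or 4 of the 15 were called. The wider folding list had 13 of 29 genes falling and 4 rising in droughted ovaries, with a median log2 change of -0.41, and leaving out any library brought the falling count to between 4 and 6. The 4 that rose were hsp82, Hsp70, hsp18c and HSP90-1, by log2 changes of 3.20, 1.21, 1.17 and 0.49. Without either drought library or the first well-watered library 2 or 3 genes were called as rising. In leaf HSP90-1 fell, with a log2 change of -2.68, a call that was lost without either drought library. A gene named aprl3 (GRMZM2G042582) had 81.8 and 79.4 FPKM in droughted and 64.2 and 76.1 FPKM in well-watered ovaries, and 69.6 and 73.8 FPKM in droughted and 67.1 and 69.5 FPKM in well-watered leaf.

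RNA processing gave 2 members that belong to the SR proteins, splicing factors with an RNA-binding domain, a zinc knuckle and a tail rich in serine and arginine. RS2Z37A (GRMZM2G175419) had 94.8 and 95.2 FPKM in droughted and 109 and 113 FPKM in well-watered ovaries, and 60.5 and 57.0 FPKM in droughted and 62.2 and 64.2 FPKM in well-watered leaf. RSZ21 (GRMZM2G151923) had 81.2 and 79.4 FPKM in droughted and 103 and 89.6 FPKM in well-watered ovaries, and 59.5 and 55.3 FPKM in droughted and 56.0 and 53.4 FPKM in well-watered leaf. Both lay lower in droughted ovaries, and RS2Z37A also in droughted leaf, with ovary log2 differences of -0.22 and -0.26. Their relatives RSZ28 (GRMZM2G027105), RS2Z39 (GRMZM2G474658) and RSZ20 (GRMZM2G080930) rose in droughted ovaries, by 0.43 ± 0.138, 0.51 ± 0.147 and 0.58 ± 0.174 with adjusted p of 0.0431, 0.0296 and 0.0342. These 3 calls were each lost whenever a library was left out. In leaf 1 of the 7 genes of this name tested was called, RS2Z37B (GRMZM2G099317), listed at 0 in both droughted libraries, against 42.4 and 47.9 FPKM in the well-watered ones, and that call was lost without either drought library.

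HMGe (GRMZM2G145968, also named nfd102), an HMG-box chromatin protein gene, had 107 and 108 FPKM in droughted and 123.1 and 98.1 FPKM in well-watered ovaries, and 74.9 and 75.1 FPKM in droughted and 91.8 and 85.2 FPKM in well-watered leaf. Conditions overlapped in ovary, and in leaf the droughted libraries lay lower, with a log2 difference of -0.23. Of the 9 genes with HMG or NFD names tested, 4 fell and 2 rose in droughted ovaries, beside 29.5% and 23.6% of all tested genes, and 0 of 8 were called in leaf. nfd106 (GRMZM2G125648) had 0.770 and 0.464 FPKM in droughted and 51.7 and 66.8 FPKM in well-watered ovaries, and nfd101 (GRMZM2G066528) had 6.28 and 2.23 FPKM in droughted and 158 and 116 FPKM in well-watered ovaries. The wider list of RNA-binding and chromatin genes, which includes histones, had 10 of 15 falling and 2 rising in droughted ovaries with a median log2 change of -1.91, and 0 of 14 called in leaf. The 2 that rose were nfd110 (GRMZM2G032252) and HMG13 (GRMZM5G834758), by 1.26 and 0.80, and with a library left out 0 or 1 rose.

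Water passes the plasma membrane through PIP aquaporins, and 1 of these was a member. PIP1-3 (GRMZM2G392975, also named PIP1-4) had 194 and 194 FPKM in droughted and 174 and 185 FPKM in well-watered ovaries, and 154 and 165 FPKM in droughted and 178 and 175 FPKM in well-watered leaf. The droughted libraries lay above in ovary and below in leaf, by log2 differences of 0.11 and -0.15. Of the 9 PIP genes tested 4 fell in droughted ovaries, namely PIP2-1 (GRMZM2G014914), PIP2-4 (GRMZM2G154628), pip2-5 (GRMZM2G178693) and pip2c (GRMZM2G081192), with log2 changes of -0.82, -1.58, -1.69 and -2.94, and without the second well-watered library 2 were called. In leaf 0 of 9 were called, or 2 without the first well-watered library. PIP2-1 and PIP2-6 carry identical leaf values and count as 1 measurement there. The wider list of aquaporins, porins, pumps and carriers holds 3 genes listed at 0 in both ovary libraries of a condition. TIP3-1, called as rising, is at 0 with water, and TIP4-3 and TIP4-4, called as falling, are at 0 under drought. With these included, the list had 13 of 25 falling and 1 rising in droughted ovaries with a median log2 change of -0.82. Its falling count was 8 without the first drought library, and its rising count was up to 3 without either well-watered library or the first drought library. In leaf 2 of 24 fell, TIP4-1 and TIP4-2, with log2 changes of -1.72 and -2.26, and leaving out any of the 4 leaf libraries moved the count, to between 0 and 4.

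Redox and cell wall functions gave a member each. apx2 (GRMZM2G140667), an ascorbate peroxidase gene whose product removes hydrogen peroxide, had 149 and 175 FPKM in droughted and 179.7 and 143 FPKM in well-watered ovaries, and 266 and 285 FPKM in droughted and 267 and 260.0 FPKM in well-watered leaf. Conditions overlapped in both tissues. kds1 (GRMZM2G119256), for the enzyme that activates the pectin sugar KDO, stood above its well-watered level in droughted ovaries and overlapped in leaf. It had 102 and 95.8 FPKM in droughted and 82.3 and 89.3 FPKM in well-watered ovaries, and 78.6 and 84.5 FPKM in droughted and 81.0 and 71.4 FPKM in well-watered leaf.

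Regulatory genes were also among the members. TIFY23 (GRMZM2G080509) belongs to the TIFY family, which includes the JAZ repressors of jasmonate signalling, and was the fourth most even of the 950. It had 59.3 and 56.8 FPKM in droughted and 56.5 and 53.2 FPKM in well-watered ovaries, and 64.2 and 64.7 FPKM in droughted and 60.0 and 60.3 FPKM in well-watered leaf. The droughted libraries lay above the well-watered ones in both tissues, by log2 differences of 0.08 in ovary and 0.10 in leaf. Of the 21 TIFY genes tested in leaf 5 rose, among them TIFY9 (GRMZM2G145412), with 142 and 256 FPKM in droughted and 15.3 and 10.7 FPKM in well-watered leaf, a log2 change of 3.80 ± 0.346 and adjusted p of 0.016. Over all tested genes 2.35% rose in leaf. In droughted ovaries 4 of 18 rose, a share near the 23.6% of all tested genes, and 1 fell, or 0 to 2 with a library left out, while TIFY4 (GRMZM2G445634) rose in both tissues. The leaf count was 0 without either drought library or the second well-watered library and 11 without the first well-watered library, and the ovary count of rising genes was 0 to 5, lower without the second well-watered or either drought library. The median leaf difference of the 21 was 1.39.

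ARF18 (GRMZM2G035405), an auxin response factor gene, had 157 and 164 FPKM in droughted and 173 and 205 FPKM in well-watered ovaries, and 212 and 184 FPKM in droughted and 223 and 179.8 FPKM in well-watered leaf. It was the most abundant of the 15 auxin response factor genes tested in each tissue, of which 6 fell and 2 rose in droughted ovaries, beside 29.5% and 23.6% of all tested genes, and 0 were called in leaf. ARF12 (GRMZM2G437460) had the lowest log2 change, -2.69, with 1.58 and 1.76 FPKM in droughted and 17.4 and 15.1 FPKM in well-watered ovaries. ARF10 (GRMZM2G338259) rose by 0.91 and ARF1 (GRMZM2G169820) by 0.69, and with a library left out 3 or 4 genes fell and 0 or 1 rose. The falling count moved most without the second well-watered library or either drought library. bHLH172 (GRMZM2G017586), a basic helix-loop-helix factor gene, had 88.8 and 86.0 FPKM in droughted and 70.1 and 65.9 FPKM in well-watered ovaries, and 58.1 and 61.0 FPKM in droughted and 52.7 and 63.3 FPKM in well-watered leaf. Its ovary difference of 0.36 was the highest of any member.

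prh1 (GRMZM2G112240, also named PP1), a protein phosphatase gene, had 67.0 and 68.6 FPKM in droughted and 69.7 and 68.7 FPKM in well-watered ovaries, and 69.0 and 67.4 FPKM in droughted and 90.8 and 72.8 FPKM in well-watered leaf. Its ovary span of 0.06 was the lowest of the members, and its rank of 128 came from the leaf, where the first well-watered library stood above the others. hir1 (GRMZM2G117755), a hypersensitive induced reaction gene of a membrane protein family linked to plant defence, had 78.3 and 85.2 FPKM in droughted and 79.8 and 72.3 FPKM in well-watered ovaries, and 57.0 and 59.9 FPKM in droughted and 70.3 and 78.5 FPKM in well-watered leaf. Of its relatives hir3 (GRMZM2G070659) rose and hir2 (GRMZM2G150762) fell in droughted ovaries, with log2 changes of 1.04 and -0.90. The call of hir3 was lost without the second drought library, and that of hir2 without the first well-watered library or either drought library. In leaf hir2 is listed at 0 in both droughted libraries, against 7.89 and 7.88 FPKM in well-watered ones, and that call was lost without either drought library.

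The other named members, given without a role, were gbp1, dhy-l and shpl1. gbp1 (GRMZM2G015159) overlapped between conditions, with 106 and 92.4 FPKM in droughted and 90.9 and 110.2 FPKM in well-watered ovaries, and 62.4 and 61.1 FPKM in droughted and 66.9 and 56.8 FPKM in well-watered leaf. dhy-l (GRMZM2G031308) had 132 and 137 FPKM in droughted and 105 and 105 FPKM in well-watered ovaries, and 69.8 and 82.4 FPKM in droughted and 91.6 and 77.6 FPKM in well-watered leaf. Its droughted ovaries stood clear of the well-watered ones by 0.35, while its leaf libraries overlapped. shpl1 (GRMZM2G399073) had 90.8 and 77.6 FPKM in droughted and 90.2 and 83.8 FPKM in well-watered ovaries, and 57.1 and 67.3 FPKM in droughted and 78.3 and 59.7 FPKM in well-watered leaf.

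**Figure D2:**
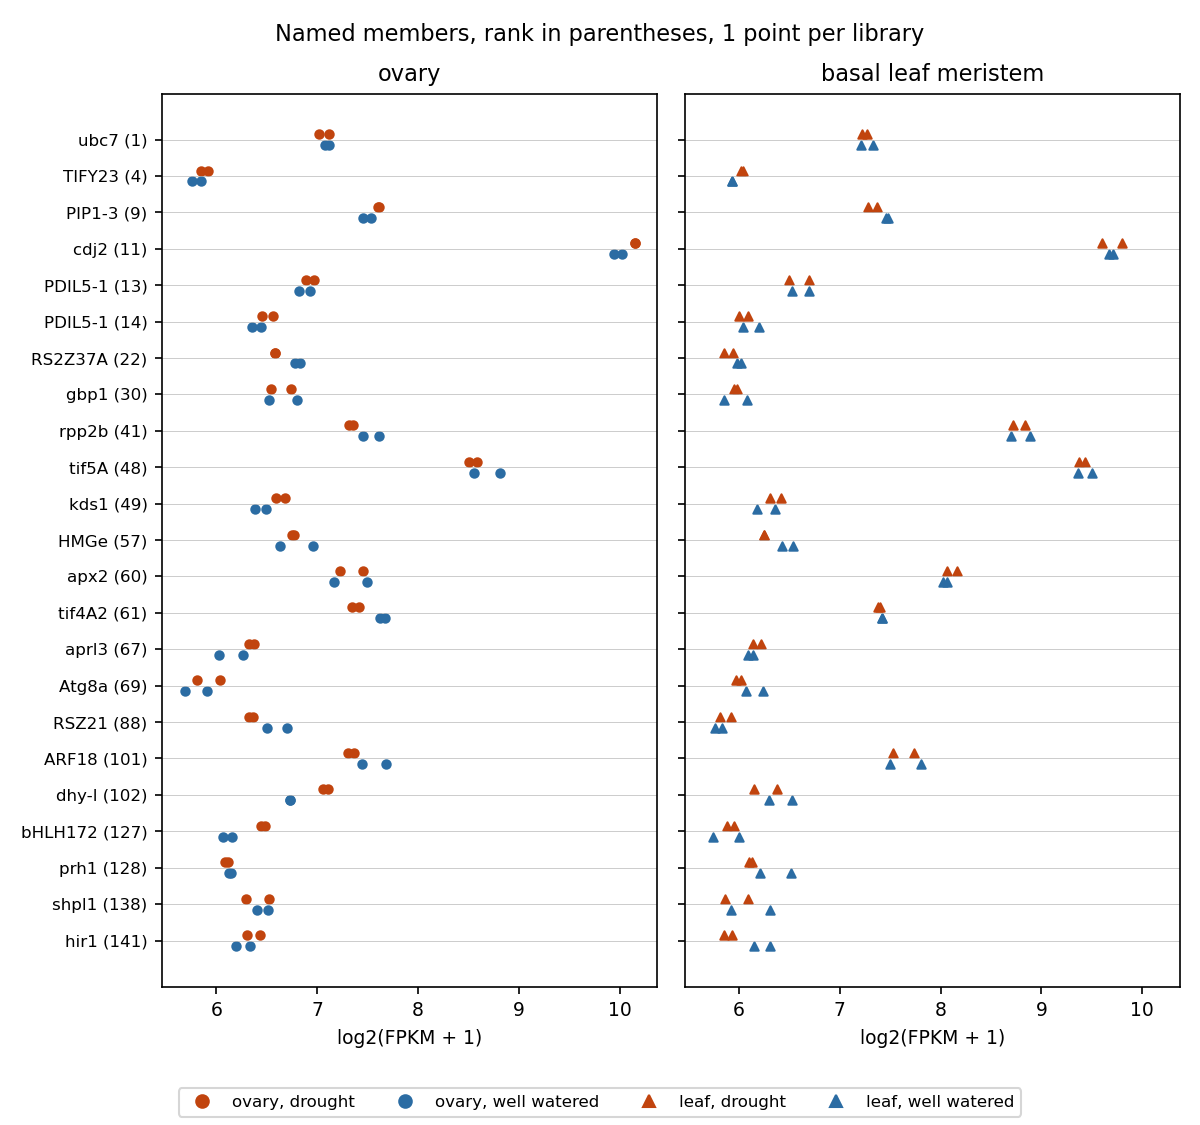
Each point is 1 library of the 23 named members, ordered by rank, with log2(FPKM + 1) on the horizontal axis, ovary on the left and basal leaf meristem on the right, drought above well watered within a row. The points of a row stay within 0.46 log2 units in each panel, and rpp2b, tif5A and apx2 sit farther right in leaf than in ovary.

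**Figure D3:**
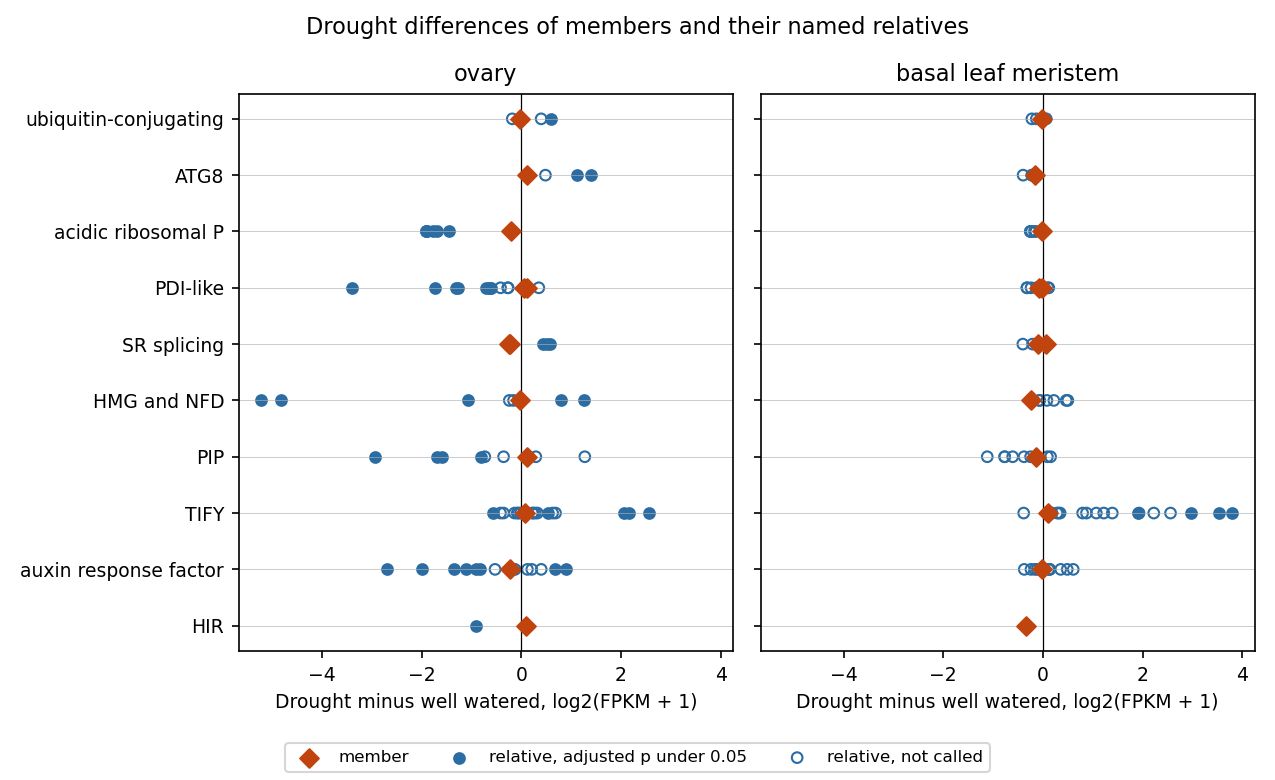
Limma log2 differences, drought minus well watered, for members (diamonds) and relatives with the same family name listed in both tables (circles, filled at adjusted p under 0.05), ovary on the left and leaf on the right. Members lie near 0 as the rule requires, while relatives reach -5.21 in ovary (nfd106) and 3.80 in leaf (TIFY9), and genes listed at 0 in both libraries of a condition are left out.

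Some abundant members have no name in the annotation. GRMZM2G416388 had 944 and 903 FPKM in droughted and 788 and 836 FPKM in well-watered ovaries, and 782 and 734 FPKM in droughted and 776 and 784 FPKM in well-watered leaf. GRMZM2G102471 had 720.4 and 780.1 FPKM in droughted and 623 and 587 FPKM in well-watered ovaries, and 792 and 787 FPKM in droughted and 789 and 808 FPKM in well-watered leaf. GRMZM2G134980 had 686 and 685 FPKM in droughted and 771 and 757 FPKM in well-watered ovaries, and 666 and 606 FPKM in droughted and 618 and 657 FPKM in well-watered leaf. The droughted ovaries stood above the well-watered ones for GRMZM2G416388 and GRMZM2G102471 and below them for GRMZM2G134980.

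Level in ovary against leaf was not used by the rule beyond the minimum of 50 FPKM. The tissues stand in separate tables that may be scaled differently, so it is described by values and has no test. The absolute ovary minus leaf difference had a median of 0.37 log2 units in members, 0.49 in the other 800 and 0.69 over all genes tested in both, and 138 of 150 members lay within 1 log2 unit. All 4 ovary libraries lay above all 4 leaf libraries for 51 members (34%) and below them for 34 (22.7%), with 65 overlapping. These shares were 18.4% and 13.4% in the other 800, and 30.5% and 15.8% in all genes tested in both. Narrow spans within a tissue, which the rule selects, make such separation more likely, so the counts of members are not independent of the rule. These counts depend on the scaling: they were 39 above and 49 below with upper quartile scaling, and 23 above and 75 below with median of ratios scaling. The median ovary minus leaf difference was 0.08 in members, 0.05 in the other 800 and 0.27 over all tested genes as deposited. It was -0.08, -0.12 and 0.12 with upper quartile scaling, and -0.25, -0.29 and -0.03 with median of ratios scaling. Members and the other 800 thus both lay below all tested genes under each of these 3 scalings. The sign turned for 24 members with upper quartile scaling and for 37 with median of ratios scaling.

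A difference of at least 1 log2 unit was found for 5 members higher in ovary and 7 higher in leaf. AC215690.3_FG002, described above, had the highest ovary minus leaf difference, 1.47, followed by GRMZM2G102596 at 1.22 and GRMZM5G886109 at 1.17. GRMZM2G112165 was the most abundant of the 5, with 434 and 399 FPKM in droughted and 370.3 and 399 FPKM in well-watered ovaries, against 182 and 199 FPKM in droughted and 165 and 181 FPKM in well-watered leaf. The fifth was GRMZM2G048846 at 1.09.

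On the leaf side GRMZM2G167892 had 60.3 and 61.7 FPKM in droughted and 60.5 and 74.4 FPKM in well-watered ovaries, against 218 and 199.7 FPKM in droughted and 232 and 221 FPKM in well-watered leaf, a difference of -1.75. GRMZM2G071010, GRMZM2G027378, GRMZM2G144153, GRMZM2G152041 and GRMZM5G823855 followed at -1.68, -1.51, -1.45, -1.42 and -1.02, with rpp2b the other of the 7. Among named members rpp2b had the lowest ovary minus leaf difference, -1.35, followed by tif5A at -0.80 and apx2 at -0.74. The splicing factor genes RS2Z37A and RSZ21 stood on the other side at 0.74 and 0.64.

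**Figure D4:**
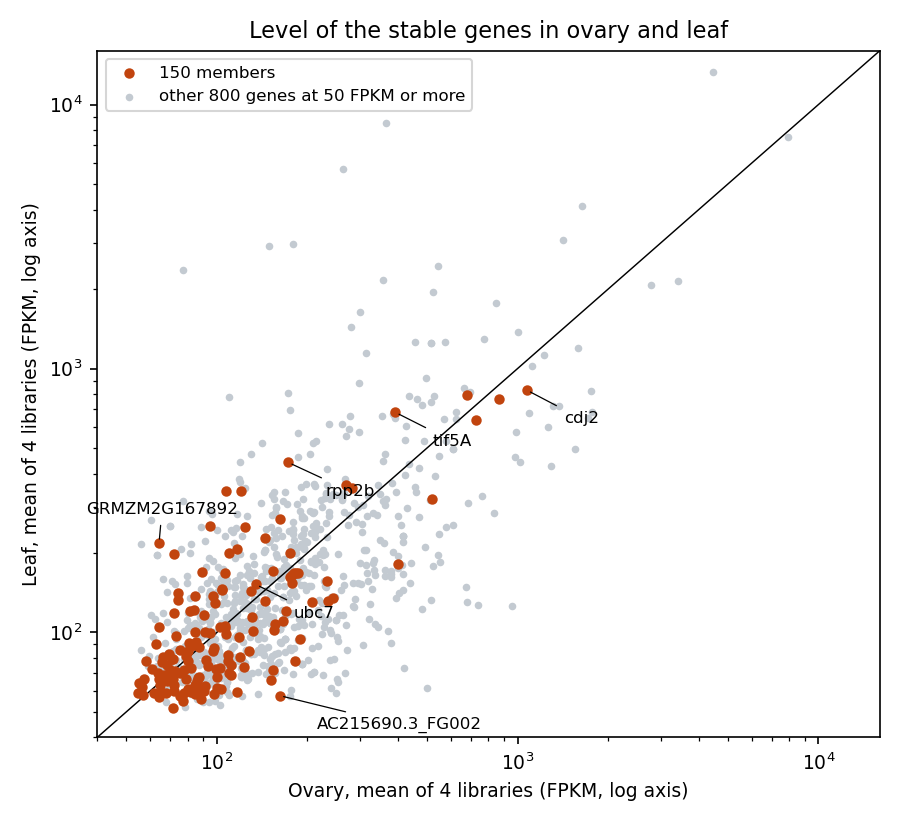
Mean FPKM over the 4 ovary libraries (horizontal) and the 4 leaf libraries (vertical) of the 150 members and of the other 800 genes with at least 50 FPKM in all 8 libraries, both on log axes, with the line of equal level. Members gather along the line at the lower end of the range, with AC215690.3_FG002 and GRMZM2G167892 farthest from it on either side.

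Of 18 genes matched by symbol to a list of internal controls and listed in both tables, 6 reached 50 FPKM in all 8 libraries. The 18 include 10 tubulin genes and the glyceraldehyde-3-phosphate dehydrogenase genes GAPC1, GAPC2, GAPC3 and gpc4, so their counts mostly describe these families. Ubiquitin, cyclophilin, lug, mep1, fpgs1 and cul1 symbols were also on that list and gave no gene listed in both tables. Of the 6 that reached this minimum, eIF-4A was a member, a share of 16.7%, where 15.8% of the 950 abundant genes are members. The symbol match took in eif5a but not its namesake tif5A, a member at rank 48, so this share depends on the names matched. In droughted ovaries 16 of the 18 fell and 1 rose, against 29.5% and 23.6% of all tested genes, and in leaf 0 of the 18 were called, with limma. All 10 tubulin genes fell in droughted ovaries, with log2 changes between -1.65 (tub3) and -4.49 (tub6), while in leaf their differences ran from 0.15 to 1.08. The second well-watered leaf library was the lowest leaf library for each of them. In leaf tua4 had 559 and 590 FPKM under drought and 544 and 294 FPKM with water. The ovary span of the 17 non-members had a median of 3.06 and a range of 1.53 to 8.93, where the highest belongs to eif5a with its listed 0, and their leaf span had a median of 0.90.

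The actin gene act1 (GRMZM2G126010) rose in droughted ovaries, with 133 and 145 FPKM, against 44.8 and 48.9 FPKM in well-watered ovaries, a log2 change of 1.55 ± 0.148 and adjusted p of 0.000612. The elongation factor gene EF1A (GRMZM2G153541) fell, with 197 and 166 FPKM in droughted and 628 and 589 FPKM in well-watered ovaries, a log2 change of -1.74 ± 0.175 and adjusted p of 0.000728. GAPC1 (GRMZM2G046804), a glycolytic dehydrogenase gene, fell to 320.0 and 289 FPKM in droughted ovaries, against 836 and 829.7 FPKM in well-watered ones, and in leaf had 599 and 790.1 FPKM under drought and 596 and 594 FPKM with water. The calls of GAPC2 (GRMZM2G180625) and tub3 (GRMZM2G108766) did not hold in every fit with a library left out, reaching adjusted p of 0.0555 and 0.0588. GAPC2 was lost without the first well-watered or the second drought library, and tub3 without the second well-watered library. In leaf 5 of these genes, tub6, tua5, TUA2, TUB2 and GAPC3, were called as rising without the first well-watered library. The wider list of glycolysis and energy genes, which has no member, had 15 of 17 falling in droughted ovaries and 0 rising, with a median log2 change of -1.41, and 0 of 18 called in leaf. Over all genes tested in leaf, 5020 of 22418 reached an unadjusted limma p under 0.05. In lists without an adjusted call in leaf, the counts at that threshold were 1 of the 18 internal controls and 2 of 18 glycolysis and energy genes. They were 1 of 5 ATG8 genes, 1 of 15 PDI-like genes, 2 of 9 PIP genes and 4 of 15 auxin response factor genes. They were 0 of 8 HMG and NFD genes, 0 of 14 RNA-binding and chromatin genes and 0 of 4 ubiquitin-conjugating enzyme genes.

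**Figure D5:**
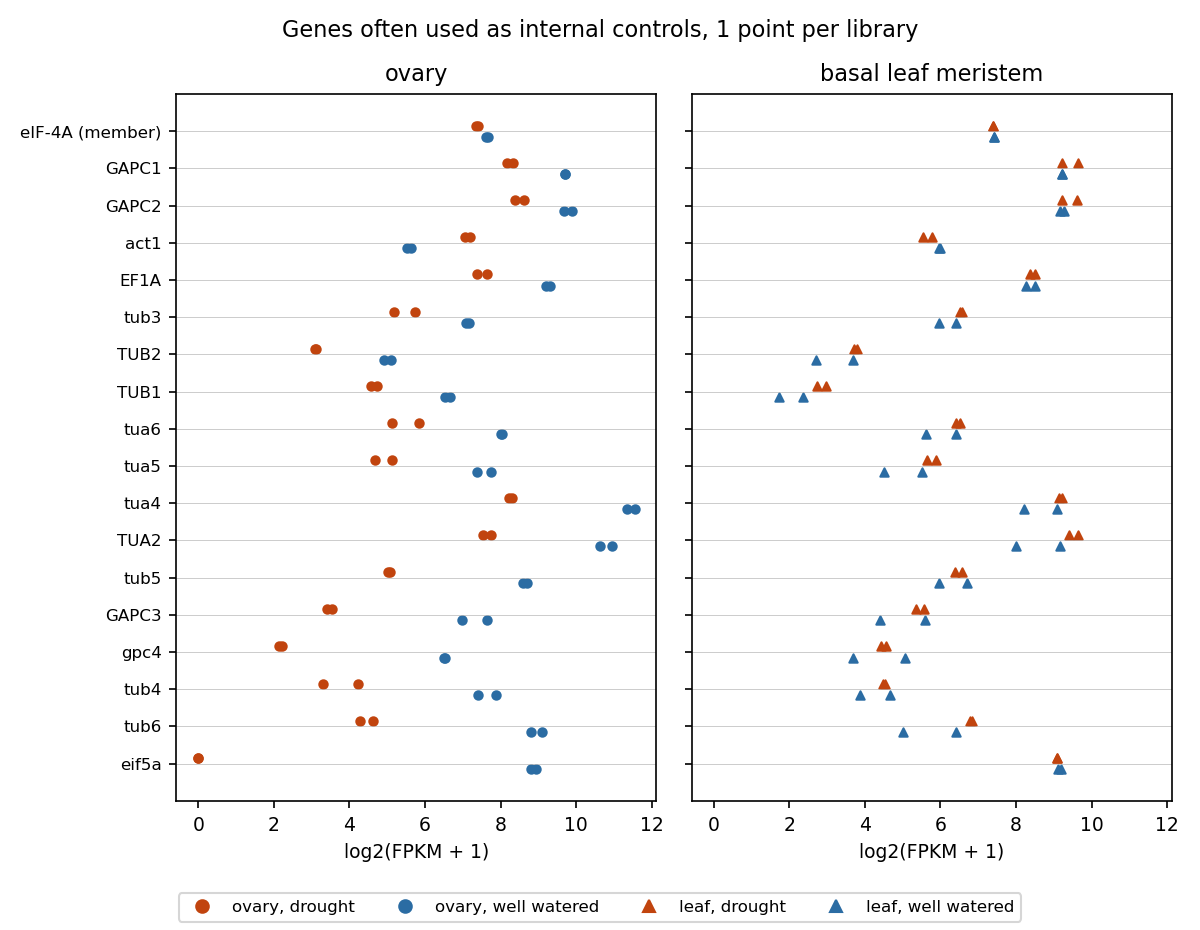
Each point is 1 library of 18 genes matched by symbol to a list of internal controls, ordered by score. The horizontal axis is log2(FPKM + 1), ovary on the left and basal leaf meristem on the right, drought above well watered within a row. In ovary the drought and well-watered points of the 17 non-members lie at least 1.29 log2 units apart in their means, whereas those of the member eIF-4A lie 0.27 apart.

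Narrower choices were also made within the 950 genes, whose minimum of 50 FPKM already used every library, so the values below are a description and not independent of the choice. The 150 genes with the smallest ovary spans had a median leaf span of 0.30, against 0.37 in the other 800. The 150 with the smallest leaf spans had a median ovary span of 0.81, against 0.93 in the other 800, and 27 genes (18%) were in both choices. When 150 genes were chosen by the replicate 1 libraries of both tissues, the larger absolute drought difference in the replicate 2 libraries had a median of 0.35, against 0.97 in the other 800. Chosen by the replicate 2 libraries, the median in the replicate 1 libraries was 0.26, against 0.84, and these choices shared 71 genes (47.3% of each).

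Some gene models carry the same values in every library of a table, as can arise when models overlap or share reads. This held for 1003 of 26380 genes in the ovary table (3.8%) and 1108 of 25873 in the leaf table (4.28%). Among members, GRMZM2G027378 and GRMZM2G071010 had identical values in the 4 leaf libraries, both with 342 and 304 FPKM in droughted and 373 and 357 FPKM in well-watered leaf, and differ in ovary. In the ovary table GRMZM2G102596 had the values of the non-member GRMZM2G405178, and GRMZM2G151726 those of the non-member GRMZM2G151826. The levels of these members cannot be separated from those of their partners.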

How the data were processed

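The expression values were deposited by the authors as FPKM, in a table per tissue with a column per library, from polyadenylated RNA. CASAVA 1.8, TopHat 1.2.0 and Cufflinks 1.0.2 are named, without roles, in the submitters' processing notes, and neither genome build nor annotation is stated there. FPKM is scaled to the library and the gene length, so a few genes with extreme values can lower all others in a library, and without read counts the depth and the counting error are unknown.

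Members were the 150 genes with the smallest larger span of log2(FPKM + 1) among genes with at least 50 FPKM in all 8 libraries. The members, gene lists and tests were chosen with earlier results of these data known. Genes whose mean reached 1 FPKM in a tissue were fitted with limma 3.58.1 (R 4.3.3, trended empirical Bayes), drought against well watered, in each tissue separately with 2 residual degrees of freedom and prior degrees of freedom of 3.74 in ovary and 2.42 in leaf, and p was adjusted by the Benjamini-Hochberg method over all genes of the table. The fit was tested on simulated data. A fold change on the log2(FPKM + 1) scale understates the change of low genes. Ovary and leaf were not tested against each other, because their tables may be scaled differently. Other steps used Python 3.11.15, pandas 2.3.3, numpy 2.4.6 and matplotlib 3.10.9.

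Names came from the RefSeq annotation of Zm-B73-REFERENCE-NAM-5.0, in which 15185 of 23586 models in both tables matched through synonyms. No coordinates or sequences were used, and sequence features were not analysed here. Named genes were members with a name, the 5 members with the smallest score, the ranks beside the cut, the 5 with the highest mean FPKM, the 5 each way with the largest ovary minus leaf difference, and the internal controls. Genes named in the families beside these were chosen after their values were seen. The planned lists for ubiquitin and proteasome (0 genes matched), trafficking and 14-3-3 are not reported, the last pair because their symbols also name other maize families. Pollen markers gave no match.

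Alternatives were another pseudocount, minimum or filter, upper quartile, median of ratios and quantile scaling, other measures of evenness, a fit without the trend, a replicate block and leaving out each library.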

Additional observations from a re-analysis of the deposited data

Results flagged for a closer look

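For 19 named genes the droughted libraries lay on opposite sides of the well-watered ones in the 2 tissues, and the difference between the tissues was not tested in any of them. Such opposite separation was seen in 15.3% of the members, against 26.4% of all genes tested in both tissues. Values are log2 differences, drought minus well watered.

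Among members, the aquaporin gene PIP1-3 (GRMZM2G392975) stood at 0.11 in ovary and -0.15 in leaf. GRMZM2G071010 stood at 0.16 in ovary and -0.18 in leaf, and GRMZM2G027378 at 0.22 in ovary and -0.18 in leaf. These models share their leaf values, so their leaf differences are 1 measurement. The rule that chose the members used these values.

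Among internal controls, act1 stood higher under drought in ovary at 1.55 and lower in leaf at -0.32. The others stood lower in ovary and higher in leaf. GAPC1 had -1.45 in ovary and 0.21 in leaf. For the alpha tubulin genes, TUA2 had -3.15 in ovary and 0.94 in leaf, tua4 had -3.18 and 0.52, and tua5 had -2.65 and 0.74. For the beta tubulin genes, TUB1 had -1.94 in ovary and 0.80 in leaf, TUB2 had -1.92 and 0.54, tub3 had -1.65 and 0.36, and tub6 had -4.49 and 1.08. For each of these tubulin genes the second well-watered leaf library was the lowest leaf library. In leaf TUA2 had 681 and 798 FPKM under drought and 573 and 255 FPKM with water, so these leaf differences lean on 1 library. None of these internal controls' leaf differences was called by limma, whereas each ovary difference was.

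Among relatives of the members and genes of the wider lists, HSP90-1, from the folding list, was called by limma in both tissues, at 0.49 in ovary and -2.68 in leaf. The others were called in ovary and not in leaf. Atg8d had 1.39 in ovary and -0.21 in leaf, nfd110 had 1.26 and -0.21, RSZ20 had 0.58 and -0.21, RS2Z39 had 0.51 and -0.40, and uce2 had 0.61 and -0.13. Atg8b is listed at 0 in both well-watered ovary libraries, against at least 106 FPKM in the droughted ones, and had -0.23 in leaf.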

How the results depend on the processing

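The set of 150 genes changed most with the minimum level, which sets the eligible genes, and with the libraries that set the span. With a minimum of 20 FPKM, 39 of the 150 members were kept among 3599 eligible genes, where the rule had 950. With 100 FPKM, 35 were kept among 277 eligible genes. Raising the minimum drops only members that fall short of it, so that count does not measure evenness. At 20 FPKM more genes compete for the same 150 places. Members kept were 35 when the leaf span alone ranked the genes and 77 with the replicate 1 libraries only. The other settings kept 109 to 149 members, and leaving out 1 library kept 110 to 147. Limma called 0 members in the ovary under each alternative except quantile normalization, which called 3, and 0 in the leaf under each alternative. In the ovary 12618 genes were called, and 5822 to 8465 with 1 library left out. In the leaf 730 genes were called, and 0 to 2031 with 1 library left out, where 0 came from leaving out either drought library (2516 and 1784 genes at an unadjusted p under 0.05) and 2031 from leaving out the first well-watered library. With a group of 1, that library is assumed to vary like the others. The labels give no pairing of the samples beyond a shared replicate number. Deviations of same-numbered libraries correlated at 0.11 in ovary and -0.17 in leaf across genes. With 2 libraries in a group these values cannot decide whether the samples were paired. A fit with the replicate number as a block called 13145 genes in ovary and 351 in leaf. With median of ratios scaling, 23 members had all ovary above all leaf libraries and 75 the reverse, against 51 and 34 as deposited, and leaving out 1 library gave 51 to 57 and 34 to 39. Under that scaling the ovary minus leaf difference changed sign for 37 of the 150 members, and for 24 with upper quartile scaling. Among the members described singly whose 4 ovary and 4 leaf libraries did not overlap as deposited, it changed sign for GRMZM2G443655 (-0.040), GRMZM2G416388 (-0.17) and GRMZM2G134980 (-0.16). The cause was not tested. For single genes, 100 of the recomputed ovary values and 19 of the leaf values fell out of the called set, and 12 in each tissue entered it. Depth is unknown, and 2 libraries in a group limit what can be called.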
